A study of Mus musculus with 10 samples.

Results

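Splenic CD8+ T cells that carried a conditional deletion of Dusp2 were compared, animal by animal, between cells rested for 24 h and cells activated for 24 h with beads coated with antibodies to CD3 and CD28. The comparison used 6 of the 10 bulk RNA libraries of the study, the rested and the activated library of each of 3 conditional knockout (cKO) mice, and covered every gene in the table. The mice were Dusp2fl/fl-E8I-cre+/-, with both copies of Dusp2 flanked by loxP sites and a cre transgene driven by E8I, an enhancer of the Cd8 locus that is active in mature CD8+ T cells. Mice 1 and 2 were male and mouse 3 was female. Rested cells were kept in the same conditions without beads. The other 4 libraries came from 2 Dusp2fl/fl-E8I-cre-/- mice (1 male, 1 female), which have the floxed gene and no cre, and served here for the spread between animals and for 1 comparison of the response. Libraries were assigned by library name and the other labels. The titles of both libraries of mouse 3 go against these labels, and every activation marker checked followed the library names (below).

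Binding of the T cell receptor, with the signal through CD28, starts calcium, MAP kinase and NF-kB cascades in a CD8+ T cell. Within hours a quiescent cell induces a first wave of transcription factors, then grows, changes its metabolism and enters the cell cycle, and it acquires receptors, cytokines and killing molecules. DUSP2 is a nuclear phosphatase induced by these signals that removes phosphate from MAP kinases. The study's title ties DUSP2 to chromatin remodelling by BAF and to effector fate, and this comparison shows what activation did in cells that lack most Dusp2 transcript.

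The 6 libraries held 51203786 to 59752821 counts, and levels are given in CPM, counts scaled to a common library size by the trimmed mean of M-values. A floor of 3 counts was worth 0.0491 to 0.0602 CPM. CPM are shares of a library, and RNA per cell was not measured. In bulk RNA, fewer cells of a type and less RNA per cell cannot be told apart. Libraries of 1 group were not repeats of each other, with a chi-square per degree of freedom of 8.55 to 41.7 over genes. All 10 markers of the activation state had no overlap between the rested and the activated libraries, those of mouse 3 included, and the Y-linked genes checked had no count in mouse 3. Markers of other cells were summed. Those of CD4+ and regulatory T cells summed to 68.2 to 83.9 CPM at rest and 545 to 646 CPM after activation, most of the latter from Il2ra (426, 367 and 464 CPM). B cell markers summed to 292 to 367 CPM at rest and 234 to 283 CPM after activation, nearly all from Ighm (314, 284 and 354 CPM at rest in mice 1, 2 and 3, 229, 229.8 and 279 CPM after activation), and myeloid markers to 12 to 15.3 CPM and 15.5 to 20.0 CPM with 6 of 21 at 0. NK cell markers summed to 67.2 to 103 CPM and 99.7 to 128 CPM, most of both from Eomes and Prf1. The part of these cells in the results was not tested. Values below are CPM in mice 1, 2 and 3, in that order. A log2 fold change is activated over rested, with a standard error (SE) computed back from the test, and p is adjusted by Benjamini-Hochberg over the 18966 genes tested with edgeR's quasi-likelihood test, mouse as a block.

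Dusp2 itself, the targeted gene (ENSMUSG00000027368; mm39 chromosome 2, 127178079 to 127180296), stood at 24.97, 24.8 and 28.1 CPM in rested and 56.3, 46.4 and 52.6 CPM in activated cKO cells. It rose in each mouse, with no overlap between the states (log2 fold change 0.99, SE 0.07, edgeR adjusted p = 2.7e-07). The control cells held 87.8 and 97.4 CPM at rest and 292 and 299 CPM after activation, so every cKO library was below every control library. The deleted stretch of Dusp2 is not stated in the labels, so the counts left are no measure of working transcript. Past the end of Dusp2 on the same chromosome lie Astl, an egg-cell metalloproteinase gene (262 bases on), and Adra2b, an adrenergic receptor gene. Astl stood at 246, 249 and 273 CPM at rest and 595, 571 and 691 CPM after activation in cKO cells, and at 0.0857 and 0.142 CPM and 1.12 and 0.392 CPM in the control mice, so every cKO library was far above every control library in either state. Cre, the recombined allele and the loss of Dusp2 cannot be told apart in this difference. It rose with activation (log2 fold change 1.27, SE 0.08, edgeR adjusted p = 1.62e-07), as did Adra2b (1.08, SE 0.07, adjusted p = 1.91e-07), from 67.4, 66.5 and 89.8 CPM to 144, 149.7 and 176 CPM. Both thus moved the same way as Dusp2 in each mouse. Other genes near Dusp2 did not all do so. Gpat2 rose (log2 fold change 1.22), Fahd2a and Tmem127 fell (-0.53 and -0.48), and Stard7 was not called.

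Activation changed most of the transcriptome of cKO cells. Of 18966 genes tested, 11840 (62.4%) passed the test, 5888 (31.0%) of them higher and 5952 (31.4%) lower in activated cells. The changes that raised genes were larger. A rise of more than 2-fold was called for 2666 genes (14.1%) and a fall of that size for 1951 (10.3%). In 11791 of the 11840 genes all 3 mice moved the same way, which the call itself favours, and 12681 genes (66.9%) had no overlap between the states. The first principal component of the 6 libraries held 74.43% of the variance and separated the states, and the second (11.01%) separated female mouse 3 from the 2 males. Without mouse 3, whose titles conflict, 5247 genes were higher and 5341 lower.

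**Figure D1:**
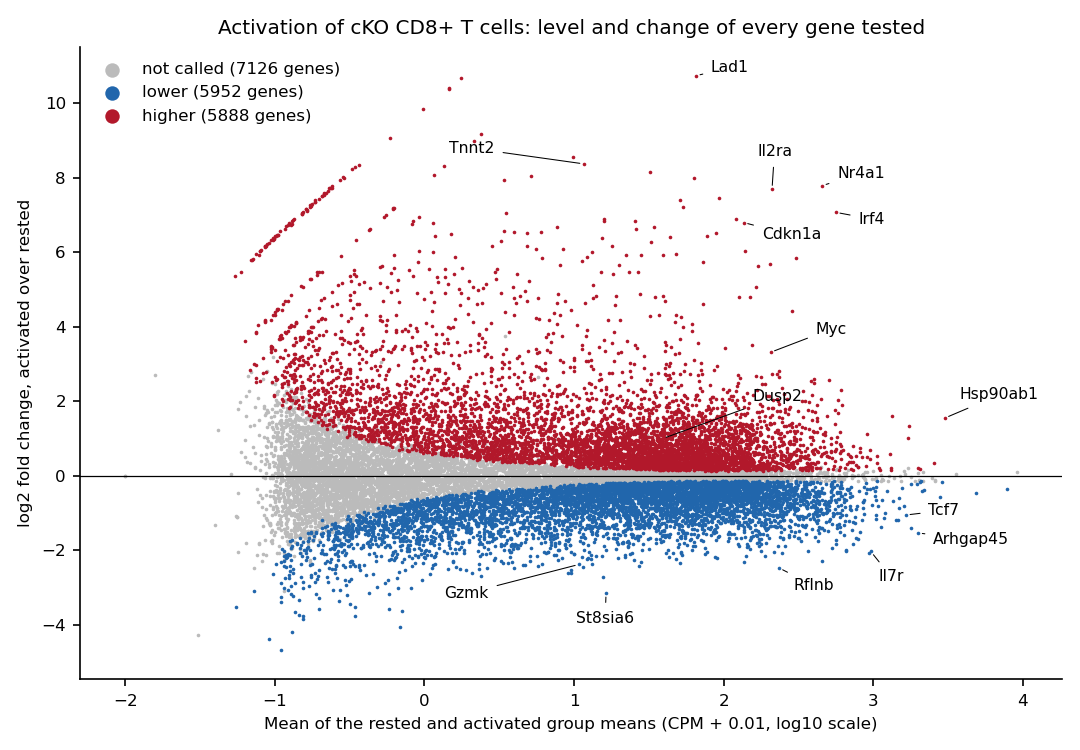
Each point is 1 of the 18966 genes tested, with its mean level over rested and activated cKO cells on the x axis (log10 of CPM + 0.01) and its log2 fold change on the y axis; red genes were higher, blue lower and grey not called. The rises reach 10.73 (Lad1) and the falls -4.68. The largest fall among genes open to naming is -3.14 (St8sia6). Those genes were called, had at least 5 CPM in a group and no overlap, and were not predicted genes or receptor segments. The slanted rows of points at the upper left are genes with no or very few counts in the rested libraries.

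The steepest rises brought genes that were close to silent at rest to high levels. Lad1, which encodes the filament-anchoring protein ladinin, rose most among genes above 5 CPM: it had 12 counts in all 3 rested libraries together and 23382 in the activated ones, a ratio of 1760 (95% interval 1010 to 3410, counting error only). In the 3 mice it stood at 0.120, 0.0522 and 0.0553 CPM at rest and 128, 103 and 161 CPM after activation (mm39 chromosome 1, 135746336 to 135761080). Utf1, a transcription factor gene of embryonic stem cells, went from 8 to 3514 counts, a ratio of 397 (201 to 921). The cardiac troponin gene Tnnt2 went from 11 to 4149 counts, a ratio of 341 (190 to 684), with 23.6, 22.5 and 23.6 CPM in activated cells. Atf3, a stress-induced transcription factor gene, rose from 0.341, 0.191 and 0.147 to 68.9, 62.2 and 60.2 CPM (log2 fold change 8.14, SE 0.14, edgeR adjusted p = 1.64e-11). Rgs16, which shortens G-protein signals, rose from 1.34, 0.783 and 1.05 to 167, 155 and 233 CPM, and Cd83, a surface activation marker, from 0.381, 0.661 and 0.774 to 94.8, 98.2 and 113 CPM. Bcat1, which starts the breakdown of branched-chain amino acids, rose from 0.662, 0.696 and 0.129 to 139.8, 112 and 129 CPM (7.99, SE 0.33). Pclaf, a PCNA-associated factor of replicating cells, rose from 4 to 1205 counts, a ratio of 272 (106 to 1000).

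Called genes were also ranked by their change in mean FPKM, a level per unit of length, leaving out mitochondrially encoded genes. The largest gain of a coding gene in this ranking was that of Hsp90ab1, which encodes the constitutive cytosolic HSP90. Hsp90ab1 rose from 1377, 1590.0 and 1626 CPM to 4180.0, 4216 and 5047 CPM, or from 499 ± 46.3 to 1528 ± 163 FPKM (SD, n = 3 mice). B2m, the light chain of MHC class I, followed, with 2112 ± 29.9 and 2548 ± 118 FPKM and a small log2 fold change (0.20, SE 0.06, edgeR adjusted p = 0.0109, and 0.0618 without mouse 2). The largest losses of coding genes in the ranking were in Arhgap45, a GTPase-activating protein gene of blood cells (647 ± 13.3 to 236 ± 40.8 FPKM), Tmsb10, an actin-binding thymosin (1271 ± 19.8 to 841 ± 99.9 FPKM), the elongation factor gene Eef2 (1651 ± 30.04 to 1256 ± 30.05 FPKM), and Tcf7. The 10 other entries picked by the same rule were annotated RNAs of at most 122 bases, whose reads cannot be told apart from those of the genes that host them.

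Among genes above 5 CPM no fall came near the size of the largest rises. St8sia6, a sialyltransferase gene, stood at 29.4, 17.2 and 42.05 CPM at rest and 3.45, 2.71 and 3.43 CPM after activation, a fitted fall of 8.84-fold. Rflnb, which encodes the filamin-binding refilin B, stood at 379.9, 399 and 406 CPM at rest and 59.01, 102 and 59.6 CPM after activation (log2 fold change -2.47, SE 0.17, edgeR adjusted p = 7.99e-06). Syne1, which encodes the giant nuclear-envelope linker nesprin-1, fell from 215, 239 and 224 to 43.8, 59.6 and 36.1 CPM. The same set held the collagen-receptor integrin gene Itga2 (-2.38), the E-cadherin gene Cdh1 (-2.39), the potassium-channel gene Kcnj8 (-2.45), the granzyme gene Gzmk (-2.38) and Eya2 (-2.30), given as log2 fold changes. It also held Ifngas1, a long noncoding RNA on mm39 chromosome 10, 118337939 to 118392477, which begins 56141 bases past the end of Ifng. Ifngas1 stood at 22.00, 16.1 and 10.2 CPM at rest and 4.50, 3.83 and 0.874 CPM after activation (log2 fold change -2.52, SE 0.22, edgeR adjusted p = 3.47e-06), while Ifng, which encodes interferon gamma, rose. The 2 neighbours thus moved in opposite directions in each of the 3 mice.

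Transcription factors that answer the T cell receptor rose together. Of 26 tested, 24 were higher and 2 lower (31.0% and 31.4% of all genes), with a median log2 fold change of 2.82 against -0.01 over all genes tested. The nuclear receptor Nr4a1, read as a gauge of receptor signal strength, stood at 3.51, 3.76 and 5.12 CPM at rest and 795, 874 and 1051 CPM after activation, a log2 fold change of 7.78 (SE 0.10, edgeR adjusted p = 2.11e-12). Irf4, whose level scales effector differentiation, went from 9.23, 7.81 and 7.87 to 1231, 954 and 1165 CPM (7.07, SE 0.09, adjusted p = 2.11e-12). For both genes every activated library was far above every rested one. Its relative Irf8 also rose, to 58.3, 27.02 and 50.8 CPM. The zinc-finger factors Egr1, Egr2 and Egr3, which switch on further response genes, rose by 5.84, 5.73 and 6.51 on the log2 scale. Nr4a2 and Nr4a3, linked to restraint and exhaustion of T cells, rose by 5.92 and 6.03.

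Of the AP-1 family in that list, Fosl1 rose most (0.120, 0.348 and 0.350 to 28.03, 28.7 and 37.9 CPM, log2 fold change 6.82), followed by Fosb (4.83) and Fos (4.58). Batf, the partner of IRF4 on composite sites, rose less (0.84, SE 0.11, from 9.13, 7.88 and 7.19 to 13.4, 15.03 and 14.8 CPM). Myc, which drives cell growth, went from 42.2, 37.9 and 32.9 CPM to 406, 322 and 396 CPM (3.31, SE 0.11, edgeR adjusted p = 4.98e-09). The 2 members that fell were Tox, a factor of chronically stimulated T cells (32.8, 31.5 and 34.5 to 21.00, 17.8 and 16.8 CPM), and the stress-response gene Ier3 (14.9, 17.1 and 8.09 to 6.53, 7.21 and 5.20 CPM). TGANTCA, the AP-1 motif searched on both strands, lay in the promoter window (250 bases before to 50 after the start) of 2 of the 14 genes with an entry among the 15 that rose most, Bcat1 and Lif, in 7.93% of all 27025 promoters of the table, and in 4.88% of the 9947 protein-coding genes tested that had an entry. The windows are RefSeq's on GRCm38.p6, another build than the counts', at chr6:145076108-145076407, - strand, and chr11:4257318-4257617, + strand, and are printed 5' to 3' with the motif in capitals because these genes were among the steepest responders.
Bcat1: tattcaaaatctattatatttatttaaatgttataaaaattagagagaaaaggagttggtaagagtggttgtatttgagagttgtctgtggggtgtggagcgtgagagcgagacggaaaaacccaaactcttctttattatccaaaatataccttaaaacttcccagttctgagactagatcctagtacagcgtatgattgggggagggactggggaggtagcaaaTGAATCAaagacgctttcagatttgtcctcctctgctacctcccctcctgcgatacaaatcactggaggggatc
Lif: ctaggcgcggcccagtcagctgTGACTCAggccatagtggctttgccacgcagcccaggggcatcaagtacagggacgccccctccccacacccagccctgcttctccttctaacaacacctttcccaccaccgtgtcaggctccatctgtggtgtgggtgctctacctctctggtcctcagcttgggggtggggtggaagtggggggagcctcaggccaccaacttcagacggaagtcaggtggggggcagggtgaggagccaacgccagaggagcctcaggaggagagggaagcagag

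**Figure D2:**
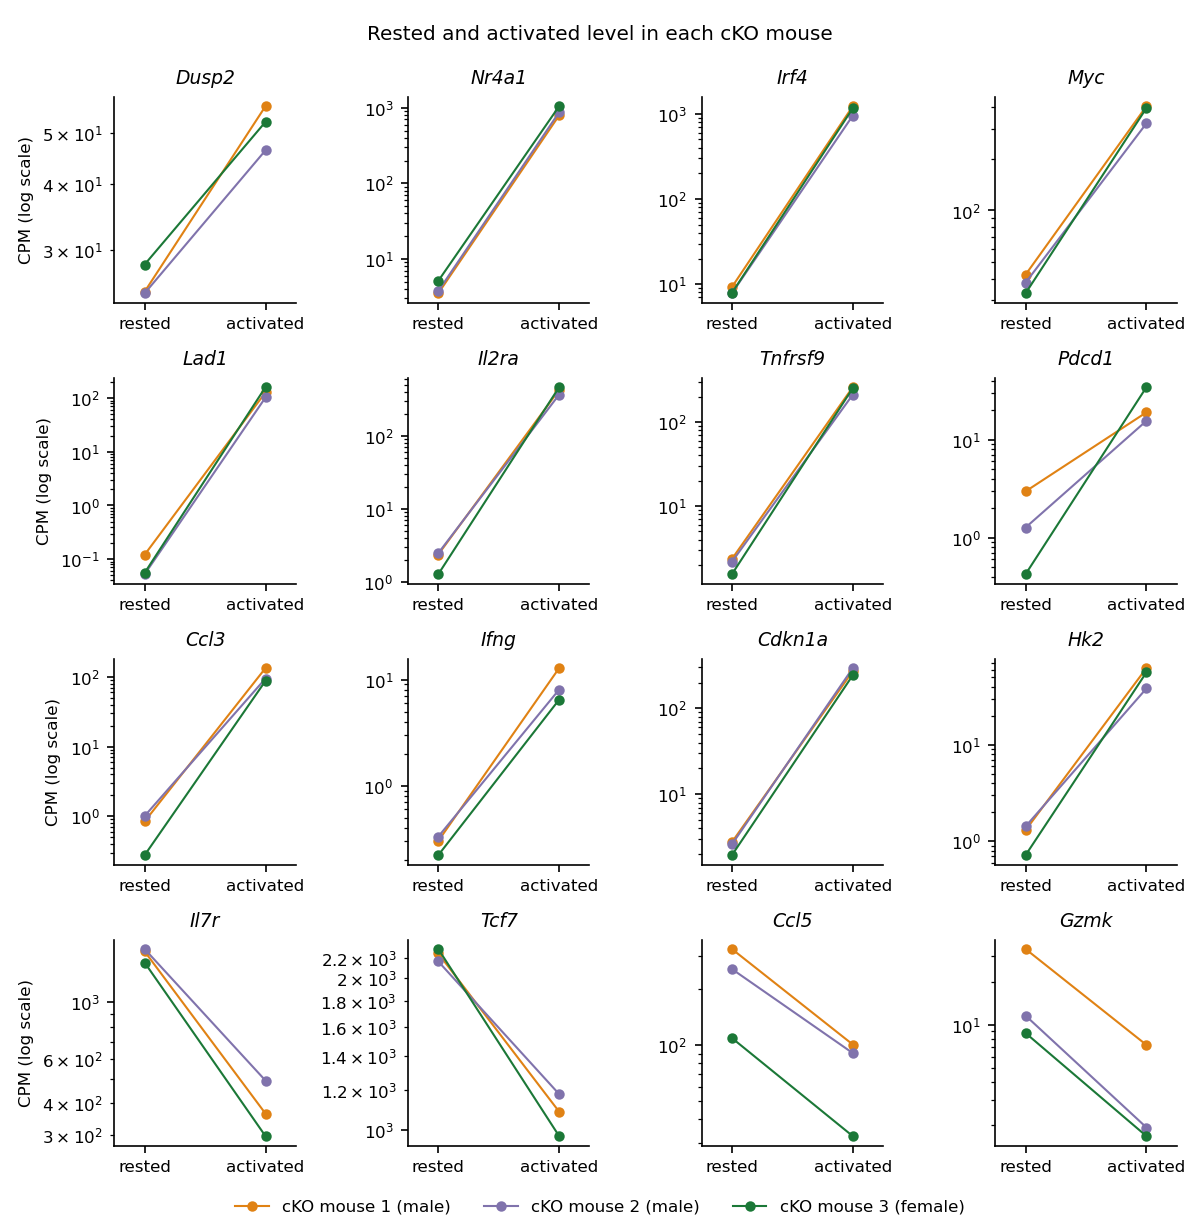
Level of 16 genes in CPM (log scale, 1 panel a gene) in the rested and the activated library of each cKO mouse, joined by a line. The 3 lines of a gene run the same way in every panel, upward for the first 12 genes and downward for Il7r, Tcf7, Ccl5 and Gzmk, and Pdcd1 rises most steeply in female mouse 3.

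Feedback regulators of MAP kinases, DUSP2 among them, mostly rose. Of 17 DUSP, Sprouty and Spred genes tested, 15 were higher and 2 lower (median 1.38). Dusp5, a nuclear phosphatase specific to ERK, stood at 13.2, 8.51 and 9.64 CPM at rest and 288, 231 and 356 CPM after it (log2 fold change 4.80, SE 0.16, edgeR adjusted p = 4.68e-08). Dusp4, another nuclear phosphatase of the family, went from 1.34, 1.15 and 0.977 to 18.1, 14.2 and 26.9 CPM (4.05, SE 0.21, adjusted p = 4.09e-08), and the cytoplasmic Dusp6 from 6.66, 6.05 and 6.86 to 29.3, 26.4 and 32.8 CPM (2.17). Spry1, a Sprouty inhibitor of the Ras pathway, rose from below 1 CPM to 48.5, 39.5 and 65.2 CPM, and Spry4 from 3 counts in each rested library to 2.67, 3.04 and 2.34 CPM. Each of these genes, named for their large rises, rose by more on the log2 scale than the residual Dusp2 transcript. Dusp1 was also called higher but rose by less than Dusp2 (0.36), and lost its call without mouse 2. The 2 that fell were Dusp7 (43.4, 38.8 and 36.9 to 19.6, 20.6 and 20.3 CPM) and Dusp10, which acts on JNK and p38 (45.2, 43.6 and 42.6 to 27.7, 33.3 and 30.1 CPM).

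NF-kB subunits, counted among the 26 transcription factors, and most of their inhibitors rose too. Nfkb1 went from 226, 218 and 238 to 904, 856 and 1031 CPM, Nfkb2 from 87.4, 92.7 and 129 to 412, 424 and 444 CPM, and Rel, the subunit most tied to T cell activation, from 92.5, 90.7 and 101 to 352, 292 and 358 CPM (log2 fold changes 2.03, 2.07 and 1.82). Of 14 regulators tested, 12 were higher, 1 lower and 1 not called (median 0.81). The nuclear inhibitor Nfkbid led (37.02, 34.1 and 37.05 to 226, 201 and 241 CPM, 2.62, SE 0.06), with the ubiquitin-editing enzyme gene Tnfaip3 (1.62) and the inhibitor gene Nfkbia (1.38) behind it. Cyld, a deubiquitinase that limits the pathway, was the 1 that fell (238, 233 and 227 to 171, 175 and 151 CPM, -0.49).

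Cytokine and chemokine genes split between induced and resting transcripts. Of 13 cytokine genes tested 9 were higher (69.2%, against 31.0% of all genes tested) and 4 lower (30.8%, against 31.4%). The median was 4.68, or 3.68 with the 2 genes that had no rested count at their lower bound. Tnf, the inflammatory cytokine, went from 2.13, 2.99 and 4.07 to 71.2, 71.9 and 90.3 CPM (log2 fold change 4.68, SE 0.12, edgeR adjusted p = 2.3e-10). Lta, its neighbour and relative, went from 6.87, 6.33 and 8.87 to 75.3, 82.8 and 128 CPM (3.68). Ifng rose from 0.301, 0.331 and 0.221 to 12.8, 8.05 and 6.47 CPM (4.96, SE 0.20, adjusted p = 8.61e-09), and Il2, the T cell growth factor, from 21 to 1029 counts over the 3 mice, a ratio of 44.3 (95% interval 28.8 to 71.9), ending at 5.67, 4.71 and 6.88 CPM. For each of these genes every activated library was above every rested one. Csf2, which encodes GM-CSF, rose from 10 to 479 counts, a ratio of 43.3 (23.4 to 90.9), and Lif, leukaemia inhibitory factor, from 8 to 1245, a ratio of 141 (71.2 to 327). Il3, an interleukin for blood-forming cells, had no count at rest and 119 after activation, at least 35.9-fold higher than the floor of 3 counts per group.

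The 4 cytokine genes that fell were expressed at rest. Ltb, the membrane partner of lymphotoxin, went from 439, 445 and 449 to 267, 333 and 298 CPM, Il16, a CD4 ligand, from 383, 362 and 354 to 231, 250.3 and 202 CPM, Flt3l from 44.2, 42.8 and 35.2 to 23.2, 24.3 and 17.6 CPM, and Osm, the oncostatin M gene, from 9.21, 9.67 and 10.6 to 5.74, 5.98 and 6.17 CPM. Among 8 chemokine genes 6 were higher and 2 lower (median 6.30). Ccl3 and Ccl4, inflammatory chemokines, rose from 0.843, 1.01 and 0.277 to 134, 94.95 and 87.9 CPM (7.21, SE 0.24, edgeR adjusted p = 8.48e-08) and from 2.19, 2.24 and 0.848 to 182, 119.8 and 155 CPM (6.43). Xcl1, which attracts cross-presenting dendritic cells, rose to 58.4, 48.8 and 96.7 CPM (6.68), and Cxcl10, an interferon-induced ligand of CXCR3, to 42.9, 31.6 and 42.9 CPM. Ccl1 had no count at rest and stood at 0.507, 1.17 and 6.98 CPM after activation, at least 155-fold above the floor over the group, with most of it in mouse 3. Ccl5, a chemokine of memory CD8+ T cells, moved the other way: it stood at 329, 257 and 109.5 CPM at rest and 101, 90.8 and 32.5 CPM after activation. The fall was of like size in each mouse (-1.70, -1.50 and -1.75 on the log2 scale), although female mouse 3 held less in both states.

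Receptors for growth cytokines were exchanged. Of 23 cytokine receptor genes 7 were higher (30.4%, against 31.0% of all genes tested) and 15 lower (65.2%, against 31.4%, median -0.56). Il2ra, the high-affinity subunit of the IL-2 receptor, stood at 2.37, 2.47 and 1.27 CPM at rest and 426, 367 and 464 CPM after activation (log2 fold change 7.68, SE 0.26, edgeR adjusted p = 4.89e-07). The shared subunits Il2rb and Il2rg rose less (0.52 and 0.65). The IL-12 receptor genes Il12rb1 and Il12rb2 rose by 2.57 and 2.94, Il12rb2 to no more than 16.2, 7.16 and 5.87 CPM. In the other direction, Il7r, which carries the survival signal of resting T cells, fell from 1582, 1616 and 1430.0 to 365, 492 and 298 CPM (-2.03, SE 0.10, adjusted p = 3.3e-08). Il6ra fell from 358, 354 and 382 to 90.3, 116 and 89.9 CPM, a fitted fall of 3.72-fold, and Ifngr1, the ligand-binding chain of the interferon gamma receptor, from 943, 674 and 639 to 381, 339 and 214 CPM. Tgfbr2 fell too (-0.76). Of 8 SOCS family genes, feedback inhibitors of cytokine receptors, 4 were higher and 2 lower: Cish, a target of IL-2 signalling, rose from 2.93, 2.94 and 3.43 to 66.9, 50.8 and 66.2 CPM and Socs3 fell from 62.8, 64.2 and 53.9 to 30.6, 33.97 and 22.97 CPM. The summed CD4+ and regulatory T cell markers rose in 9 of 13 genes tested, Il2ra and Ctla4 among them, and also Zbtb7b, a CD4-lineage factor (8.05, 4.24 and 3.10 to 31.9, 18.97 and 13.5 CPM), Izumo1r (2.33, 2.73 and 1.84 to 11.3, 8.48 and 8.73 CPM), Cd40lg, Lrrc32 and Ccr8. Ikzf2 was lower (-0.30), a call lost under 13 of the 14 alternative settings other than a fold threshold. Cd4, at 0.783, 0.678 and 1.22 CPM at rest and 0.720, 0.776 and 0.622 CPM after activation, and Foxp3, at 0.602, 0.678 and 0.885 and 0.687, 0.707 and 0.387 CPM, did not pass the test. The part of such cells in the results was not tested.

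Surface regulators of both signs rose. Of 21 costimulatory genes 16 were higher and 3 lower (median 1.06). Tnfrsf9, which encodes 4-1BB, went from 2.35, 2.17 and 1.55 to 259, 211 and 252 CPM (log2 fold change 6.89, SE 0.14, edgeR adjusted p = 1.48e-10). Of the ligands, Tnfsf14 (LIGHT) rose from 0.783, 0.487 and 0.221 to 46.8, 31.5 and 27.8 CPM and Tnfsf4 (OX40L) from 0.823, 1.37 and 0.664 to 22.5, 30.4 and 23.99 CPM. Tnfsf11 (RANKL) rose from 13 to 1414 counts over the 3 mice, a ratio of 98.4 (95% interval 57.3 to 185). Icos and Cd28 rose by 0.97 and 0.55, and Cd226, an activating receptor that competes with TIGIT, fell (log2 fold change -0.77).

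Of 15 inhibitory receptor and ligand genes 9 were higher (60.0%, against 31.0% of all genes tested) and 4 lower (26.7%, against 31.4%), with a median of 2.64. The 2 ligands of PD-1 rose: Cd274 (PD-L1) from 24.03, 25.6 and 24.8 to 284, 254 and 313 CPM (3.51, SE 0.08, edgeR adjusted p = 7.5e-11) and Pdcd1lg2 (PD-L2) to 30.2, 27.9 and 33.00 CPM. Lag3, a receptor for MHC class II, went from 1.25, 1.04 and 1.48 to 85.9, 56.9 and 89.4 CPM (5.93), Cd160 to 16.1, 13.5 and 19.99 CPM, Ctla4 from 8.55, 5.97 and 5.46 to 50.1, 36.98 and 36.3 CPM (2.64) and Tigit from 7.07, 2.96 and 2.42 to 32.6, 24.3 and 20.4 CPM. Pdcd1, which encodes PD-1 itself, varied most between mice of these genes. It stood at 2.97, 1.27 and 0.424 CPM at rest and 19.1, 15.6 and 34.5 CPM after activation, so that the mouse with the least at rest, female mouse 3, had the most after activation. The change was 2.67, 3.58 and 6.23 on the log2 scale in mice 1, 2 and 3 (fitted 3.90, SE 0.70, adjusted p = 0.00985). The call was lost without mouse 2 (adjusted p = 0.0878), control mouse 1 (0.0628) or control mouse 2 (0.0609), and the direction stayed. Cd96 and Vsir, both present at rest, fell (-0.91 and -0.45).

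Genes of killing molecules moved in both directions. Of 17 genes 8 were higher (47.1%, against 31.0% of all genes tested), 5 lower (29.4%, against 31.4%) and 4 not called, with a median of 0.08. Prf1, the pore-forming perforin, stood at 43.7, 36.8 and 33.8 CPM at rest and 35.4, 37.3 and 38.9 CPM after activation, and Nkg7 at 27.4, 24.6 and 21.4 and 26.7, 20.3 and 24.6 CPM; the states overlapped for both, and neither passed the test (edgeR adjusted p = 0.804 and 0.748). Gzmb, the main granzyme of effector cells, rose from 0.141, 0.157 and 0.995 to 5.13, 3.15 and 5.55 CPM (3.59, SE 0.40). Of genes that pack or release granules, Srgn (serglycin) rose from 176, 172 and 162 to 526, 506 and 497 CPM and Stx11 (syntaxin 11) from 5.84, 4.77 and 5.14 to 35.98, 30.6 and 42.2 CPM, Unc13d and Lamp1 fell (-0.60 and -0.19), and Rab27a was not called (0.08). The call of Lamp1 was lost under 5 alternatives, among them without mouse 1 (edgeR adjusted p = 0.0896) or mouse 2 (0.0737). Gzmk, a granzyme of memory-like cells, fell from 33.7, 11.6 and 8.77 to 7.25, 1.93 and 1.68 CPM (-2.38, SE 0.11, adjusted p = 2.43e-08), and the cathepsin gene Ctsw from 180.1, 204 and 248 to 81.2, 108 and 116 CPM. NK cell markers, which share 2 genes with this list, summed higher after activation in each mouse. Most of the sum in either state came from Eomes and Prf1. Of the 15 NK cell markers tested 4 were higher and 4 lower (26.7% each, against 31.0% and 31.4% of all genes tested). The receptor genes Klra3, Klra7 and Klri2 rose (1.35, 0.94 and 1.54), as did Eomes, and the receptor genes Klrb1c (-1.71, from 1.06, 0.643 and 0.645 to 0.311, 0.276 and 0.135 CPM) and Klrb1f (-1.56) fell. S1pr5 and Gzma were lower too, and Gzma lost its call when any cKO mouse was left out.

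Effector regulators were mixed, with 8 of 16 higher and 5 lower (median 0.50). Bhlhe40, which supports cytokine output, rose from 9.31, 5.62 and 5.57 to 337, 311 and 349 CPM (log2 fold change 5.63, SE 0.23, edgeR adjusted p = 1.06e-06), Zeb2, a terminal effector factor, from 1.49, 1.11 and 0.885 to 13.7, 10.9 and 11.4 CPM (3.38), and Hif1a from 93.4, 84.9 and 95.9 to 223, 180.5 and 205 CPM (1.15). Eomes rose by less than 2-fold (46.4, 29.1 and 25.6 to 79.3, 51.5 and 50.7 CPM, 0.86). Tbx21, which encodes T-bet, had overlapping states, 15.9, 10.3 and 5.71 CPM and 25.01, 13.6 and 12.5 CPM, and its call (0.71, adjusted p = 0.0197) was lost without mouse 2 (0.0888) or mouse 3 (0.0866) and with no mouse block (0.101). Runx3, which keeps the CD8 lineage, fell from 211, 193 and 203 to 104, 102 and 101 CPM (-0.98, SE 0.05). Prdm1 (Blimp-1) and Id2 did not pass the test, at 11.2, 9.15 and 5.16 and 38.8, 40.1 and 33.3 CPM in activated cells.

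Regulators of naive and quiescent cells fell. Of 22 tested 15 were lower, 5 higher and 2 not called (median -0.61). Tcf7, which encodes TCF-1, stood at 2242, 2162 and 2288 CPM at rest and 1086, 1177 and 971 CPM after activation (log2 fold change -1.05, SE 0.08, edgeR adjusted p = 4.83e-07). Its partner Lef1 went from 639, 665 and 724 to 257, 327 and 273 CPM (-1.25). The quiescence factors Klf2 and Klf3 fell from 696, 659.5 and 713 to 257, 298 and 209.6 CPM (-1.45) and from 528, 498 and 497 to 156, 170.3 and 129.8 CPM (-1.75). Every one of these fell in each mouse, and mouse 2 kept the most in the activated state. The translation inhibitor gene Pdcd4, the glucose-uptake brake Txnip and the antiproliferative gene Tob1 had fitted falls of 3.12-, 2.43- and 2.75-fold. Id3, an inhibitor of E proteins kept in memory precursors, rose instead (15.6, 11.5 and 14.8 to 46.97, 39.7 and 59.8 CPM, 1.80, SE 0.13).

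Genes for recirculation followed. S1pr1, the exit receptor of lymphoid organs, fell from 1170.0, 1128 and 1132 to 299.9, 404 and 268 CPM (log2 fold change -1.84, SE 0.11, edgeR adjusted p = 1.11e-07). Cd69, which retains cells by binding the S1PR1 protein, rose from 23.8, 22.04 and 31.6 to 556, 503 and 591 CPM (4.43). The integrin genes Itga4, Itgae and Itga1 and the gut-homing receptor gene Ccr9 fell (-1.74, -1.55, -2.27 and -1.82). Ccr7, the lymph-node homing receptor, rose a little (320.3, 315 and 304 to 514, 428 and 494 CPM, 0.61). Cd44 rose from 59.4, 39.9 and 24.4 to 156, 115 and 146 CPM (1.82, adjusted p = 0.013), and without mouse 2 the adjusted p was 0.0885. In all, 14 of 30 homing and adhesion genes were lower (46.7%, against 31.4% of all genes tested). The 10 that were higher (33.3%) were near the share of all genes tested (31.0%).

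The receptor's own signalling chain mostly fell. Of 31 genes 18 were lower and 8 higher (median -0.24). Dgka, which ends diacylglycerol signals, fell from 1641, 1576 and 1618 to 618, 721 and 550.4 CPM (log2 fold change -1.36, SE 0.09, edgeR adjusted p = 1.37e-07), Plcg1, which makes that lipid, from 487, 486 and 485 to 183, 211 and 176 CPM (-1.36), and Prkcq, the kinase it activates, from 431, 442 and 439 to 190.4, 221 and 177 CPM (-1.16). The kinase gene Lck, the signalling chain genes Cd247 and Cd3e and the coreceptor gene Cd8b1 had log2 fold changes of -0.57, -0.74, -0.37 and -0.69. The 8 that rose included the receptor's alpha chain constant region Trac (436, 420.5 and 482 to 735, 766 and 833 CPM), the kinase gene Zap70 (168, 162 and 163 to 378, 346 and 381 CPM, 1.16), the phosphatase gene Ptpn6 (1.58) and the inhibitory receptors Cd5 (125, 108 and 96.2 to 328, 315 and 466 CPM, 1.74) and Cd6 (1.31). All 8 GIMAP genes, GTPases that keep lymphocytes alive, were lower (median -0.79), Gimap3 most, from 1172, 1146 and 1205 to 554, 566 and 432 CPM (-1.19, SE 0.10). Marker genes of T cell identity summed to 5430 to 5790 CPM at rest and 4400 to 4650 CPM after activation, and 9 of the 12 were lower.

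Machinery for growth rose nearly in full. Of 40 genes of ribosome biogenesis 39 were higher and none lower (median 1.73); the 1 not called was Ubtf (0.05, edgeR adjusted p = 0.493). Bysl, which matures the small subunit, rose most, from 8.89, 9.84 and 8.64 to 72.1, 61.8 and 85.4 CPM (2.99, SE 0.12, adjusted p = 7.09e-09). Ncl, the nucleolar protein nucleolin, rose from 674, 660.0 and 636 to 1998, 1708 and 2373 CPM (1.61). The 42 cytosolic ribosomal protein genes moved far less (median 0.06). Of these 14 were higher (33.3%, against 31.0% of all genes tested), 6 lower (14.3%, against 31.4%) and 22 not called. Mybbp1a, Tsr1 and Nop2, which act in making ribosomal RNA and its subunits, rose from 123, 125 and 116 to 692, 597 and 777 CPM (2.50), from 39.3, 41.4 and 36.1 to 209, 182 and 232 CPM (2.41) and from 36.6, 36.02 and 35.4 to 167, 152 and 199.9 CPM (2.25). Their promoters are shown because they hold CACGTG, the E-box that MYC and its partner MAX can bind, in capitals, and rose most among members that do. The motif, which reads the same on both strands, lay in 9 of the 35 members with a promoter entry (25.7%, 87.5% of the members matched), in 7.24% of all 27025 promoters of the table, and in 10.1% of the 9947 protein-coding genes tested that had an entry. That last group is 78.0% of the protein-coding genes tested, too few for a comparison, and a match describes the letters only. The windows, printed 5' to 3' from RefSeq on GRCm38.p6, are chr11:72441077-72441376, + strand, chr11:74897830-74898129, + strand, and chr6:125131633-125131932, + strand, with the motif past the start in the first 2.
Mybbp1a: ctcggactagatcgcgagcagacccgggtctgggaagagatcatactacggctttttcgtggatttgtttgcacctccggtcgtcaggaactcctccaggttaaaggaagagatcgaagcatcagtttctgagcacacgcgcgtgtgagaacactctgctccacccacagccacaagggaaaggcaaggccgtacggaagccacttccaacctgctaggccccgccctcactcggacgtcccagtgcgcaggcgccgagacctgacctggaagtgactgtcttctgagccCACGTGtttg
Tsr1: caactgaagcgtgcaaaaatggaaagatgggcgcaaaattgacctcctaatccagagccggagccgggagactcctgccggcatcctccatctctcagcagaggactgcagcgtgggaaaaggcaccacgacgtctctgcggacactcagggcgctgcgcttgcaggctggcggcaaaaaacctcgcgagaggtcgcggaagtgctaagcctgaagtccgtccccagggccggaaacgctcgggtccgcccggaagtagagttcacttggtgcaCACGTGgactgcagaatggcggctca
Nop2: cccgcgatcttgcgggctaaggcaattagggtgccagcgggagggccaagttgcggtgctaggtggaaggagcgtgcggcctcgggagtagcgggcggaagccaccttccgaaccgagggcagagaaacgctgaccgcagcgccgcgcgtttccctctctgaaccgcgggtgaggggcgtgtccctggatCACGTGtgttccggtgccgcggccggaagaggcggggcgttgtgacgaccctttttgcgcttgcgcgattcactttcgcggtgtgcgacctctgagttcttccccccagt

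Translation, charging of tRNA and amino acid supply rose as well. Of 18 translation factors 15 were higher and 2 lower (median 1.41), Eif5a from 205, 198 and 200.2 to 989.8, 857 and 1176 CPM (log2 fold change 2.31, SE 0.09, edgeR adjusted p = 7.24e-09), while Eef2 and its kinase gene Eef2k fell (-0.46 and -1.11). Of 19 tRNA synthetase genes 18 were higher and 1, Qars, was not called (median 1.25). Of 41 genes of amino acid, folate, polyamine and nucleotide metabolism 36 were higher, 1 lower and 4 not called (median 1.90). Psat1 and Shmt1, in serine and folate metabolism, rose from 9.39, 9.32 and 7.65 to 298, 228 and 207 CPM (4.78) and from 1.99, 1.48 and 1.97 to 53.7, 40.6 and 65.2 CPM (4.86). The transporter pair Slc7a5 and Slc3a2, which import leucine, rose from 128, 124 and 149.7 to 599, 517 and 489 CPM and from 179, 170.2 and 169.6 to 763, 739 and 674 CPM. Slc7a11, the cystine importer, rose from 0.141, 0.278 and 0.332 to 16.3, 20.4 and 57.1 CPM, most in mouse 3 (6.90, SE 0.26, adjusted p = 9.73e-09). Odc1 and Srm, which make polyamines, rose by 2.81 and 4.06, and the transferrin receptor gene Tfrc by 2.64. The 1 that fell was Mthfd2l (-1.18), whose relative Mthfd2 rose (35.1, 36.7 and 40.3 to 241, 209.8 and 183 CPM, 2.49).

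**Figure D3:**
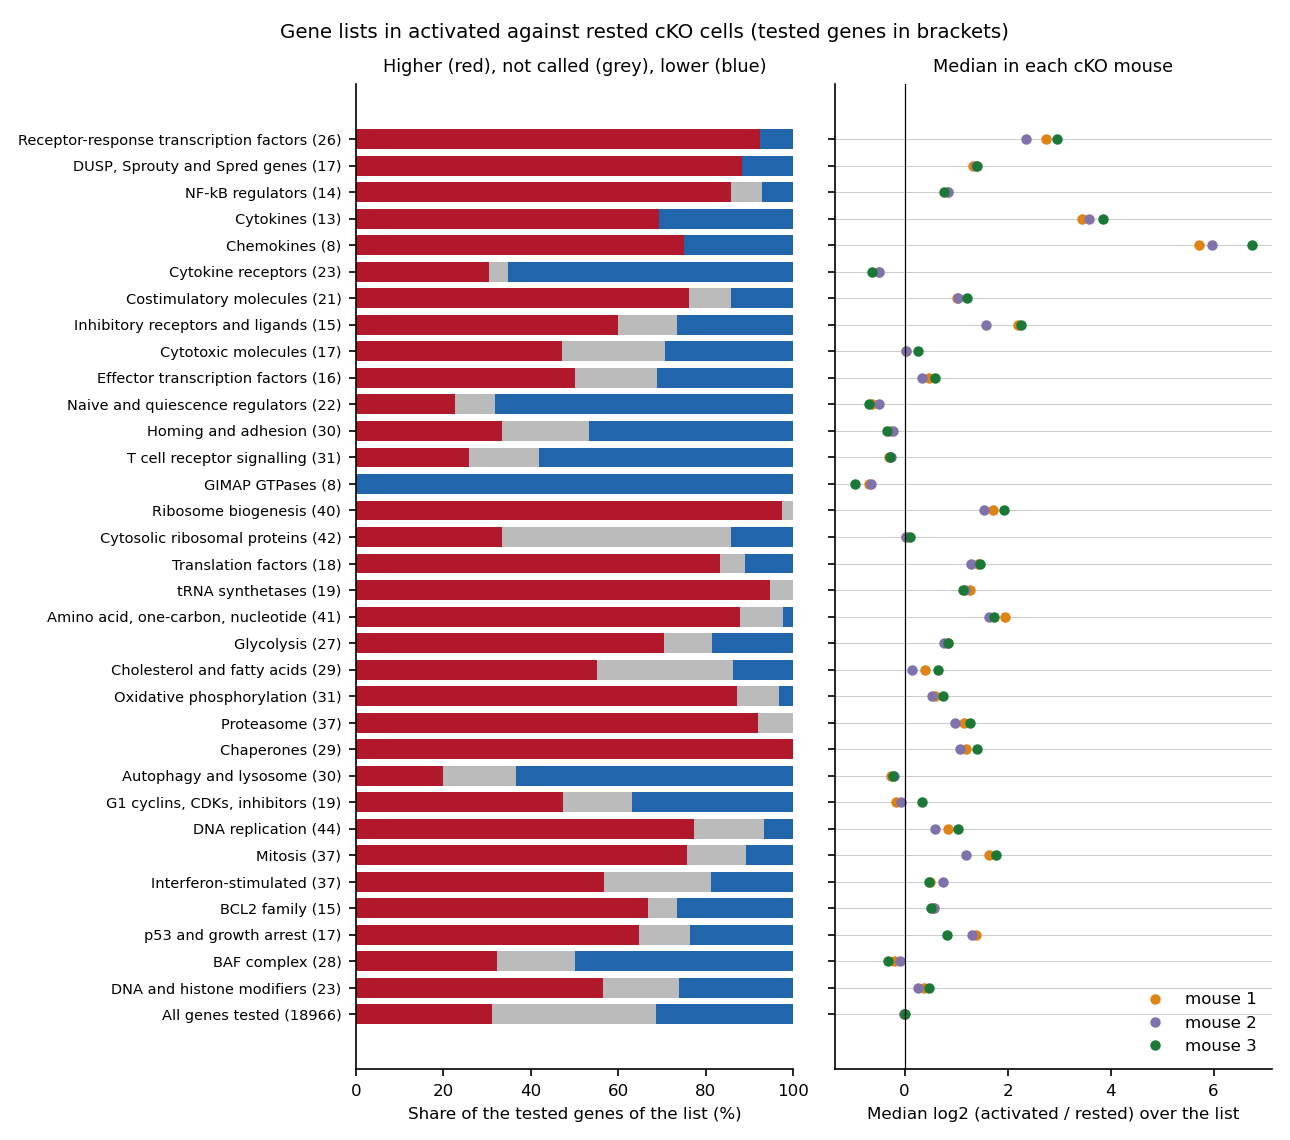
Left, the share of each list's tested genes (number in brackets) that was higher (red), lower (blue) or not called (grey) in activated cKO cells; right, the list's median log2 change in each of the 3 mice. Chaperones, ribosome biogenesis and tRNA synthetases are almost all red, all 8 GIMAP genes are blue, and the medians of all genes tested lie at 0.

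Sugar metabolism was remodelled gene by gene, with 19 of 27 glycolysis genes higher and 5 lower (median 0.86). Hk2, the inducible hexokinase, rose from 1.30, 1.43 and 0.719 to 62.2, 38.3 and 56.3 CPM (log2 fold change 5.48, SE 0.27, edgeR adjusted p = 1.28e-06) while Hk1 fell from 141, 137 and 138 to 90.3, 101 and 97.7 CPM (-0.53). The glucose transporter genes moved apart too, Slc2a1 up from 46.6, 39.9 and 39.8 to 64.3, 60.04 and 68.5 CPM and Slc2a3 down from 75.1, 74.3 and 75.02 to 47.2, 49.8 and 45.9 CPM. Gapdh and Ldha, late enzymes of the pathway, rose by 1.75 and 1.49, and Pdk1, a kinase that inhibits pyruvate dehydrogenase, fell from 277, 262 and 280.4 to 89.8, 104 and 83.9 CPM (-1.57). Nuclear genes of oxidative phosphorylation rose in 27 of 31 cases with 1 lower (median 0.65), Cycs, which encodes cytochrome c, most (16.6, 17.6 and 14.3 to 56.8, 51.2 and 55.2 CPM, 1.75). Of the 13 genes of the mitochondrial genome 1, mt-Co1, was lower (-0.36) and 12 were not called, with medians of -0.07, -0.24 and 0.49 in mice 1, 2 and 3. Under 7 of the alternative settings 1 or 2 of them were called higher (2 without mouse 2). Their sum was 16200 to 19000 CPM at rest and 15000 to 15500 CPM after activation. Of 29 sterol and fatty acid genes 16 were higher and 4 lower (median 0.34). The synthesis genes Sqle and Cyp51 rose (3.30 and 3.02), with mouse 3 highest in each (66.7, 59.6 and 109.5 CPM for Cyp51), and the cholesterol exporters Abca1 and Abcg1 fell (-1.41 and -1.50).

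Protein folding and turnover rose with growth. All 29 chaperone and unfolded-protein genes were higher (median 1.20), Hspa9, the mitochondrial HSP70, most, from 144, 147 and 148 to 905, 817 and 870.3 CPM (log2 fold change 2.56, SE 0.06, edgeR adjusted p = 1.71e-10). Hsp90aa1 rose from 104, 116 and 115 to 614, 596 and 747 CPM and Hspa5, the chaperone of the endoplasmic reticulum, from 115, 117 and 120.5 to 569, 516 and 611 CPM. A list of heat-shock and handling-stress genes, 4 of them shared with the chaperones, rose in 13 of 15 members and summed to 789 to 872 CPM at rest and 2250 to 2570 CPM after activation, and its part in these changes was not tested. Within it Hmox1, heme oxygenase, rose from 7.97, 11.8 and 8.96 to 315, 370.2 and 267 CPM, and Hspa1a, the inducible HSP70, from 27 to 477 counts over the 3 mice, a ratio of 16.0 (95% interval 10.8 to 24.5), ending at 1.18, 4.36 and 2.56 CPM. Of 37 proteasome genes 34 were higher and none lower (median 1.15). The 3 not called were the immunoproteasome's catalytic subunits Psmb8, Psmb9 and Psmb10 (-0.14, 0.01 and -0.10). Autophagy and lysosome genes went the other way, with 19 of 30 lower and 6 higher (median -0.28). The lysosomal protease gene Ctsd fell from 525, 510.0 and 464 to 239, 281 and 215 CPM and Tfeb, the master regulator of lysosomes, from 22.9, 20.2 and 22.97 to 8.49, 10.1 and 9.31 CPM, while the autophagy adaptor Sqstm1 rose from 389, 422 and 478 to 753, 815 and 762 CPM.

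Genes that copy DNA mostly rose. Of 44 DNA replication genes 34 were higher, 3 lower and 7 not called (median 0.84). Of the 3 that fell, Cdt1 and Pola2 (-0.19 and -0.16 on the log2 scale) lost their call under 11 of the 14 alternative settings other than a fold threshold, and Rpa1 (-0.65) did not. Mcm10 and Orc1, which start replication origins, rose from 0.502, 0.278 and 0.277 to 8.88, 5.71 and 13.3 CPM (4.68, SE 0.25, edgeR adjusted p = 5.02e-08) and from 0.181, 0.435 and 0.277 to 7.26, 5.05 and 11.3 CPM (4.64). Uhrf1, which copies DNA methylation to new strands, rose from 4.58, 5.50 and 6.14 to 42.3, 29.6 and 63.2 CPM (3.00). Cdc6, Mcm5 and Pola1, a licensing factor, a helicase subunit and the primase-linked polymerase, rose from 2.13, 2.40 and 2.67 to 8.47, 6.34 and 11.9 CPM, from 37.6, 36.7 and 37.03 to 123, 104 and 156 CPM and from 6.72, 6.31 and 5.22 to 18.5, 11.9 and 20.2 CPM. In each of these 6 genes mouse 3 was highest and mouse 2 lowest after activation. The E2F motif, searched as TTTCCCGC or TTTGGCGC on both strands, lay in 1.63% of all 27025 promoters of the table, in 3.15% of the 9947 protein-coding genes tested that had an entry, and in the promoters of the 3 genes just named, which were the 3 members with it that rose most and are therefore printed with it in capitals. No share over the list is compared, because 35 of its 44 genes had an entry (79.5%, under 80%). The windows (RefSeq, GRCm38.p6, 5' to 3') are chr11:98907901-98908200, + strand, chr8:75109259-75109558, + strand, and chrX:93632106-93632405, - strand.
Cdc6: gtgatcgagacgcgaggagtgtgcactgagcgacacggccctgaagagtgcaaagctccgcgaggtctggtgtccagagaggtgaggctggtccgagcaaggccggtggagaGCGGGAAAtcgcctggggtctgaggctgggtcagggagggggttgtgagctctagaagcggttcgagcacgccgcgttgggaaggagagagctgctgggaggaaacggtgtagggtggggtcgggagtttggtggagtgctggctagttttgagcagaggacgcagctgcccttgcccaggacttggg
Mcm5: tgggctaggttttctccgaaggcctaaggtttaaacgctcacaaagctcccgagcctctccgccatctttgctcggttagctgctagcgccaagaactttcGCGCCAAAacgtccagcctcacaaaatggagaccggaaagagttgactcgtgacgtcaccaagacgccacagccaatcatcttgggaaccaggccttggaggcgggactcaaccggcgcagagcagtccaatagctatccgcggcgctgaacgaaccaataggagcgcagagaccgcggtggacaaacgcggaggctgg
Pola1: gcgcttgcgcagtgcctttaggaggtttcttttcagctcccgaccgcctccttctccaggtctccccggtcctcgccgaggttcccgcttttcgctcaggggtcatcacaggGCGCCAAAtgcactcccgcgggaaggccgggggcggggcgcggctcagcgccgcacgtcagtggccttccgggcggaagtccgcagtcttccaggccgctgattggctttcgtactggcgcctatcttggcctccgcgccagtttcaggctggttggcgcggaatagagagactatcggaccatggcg

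Of 37 mitosis genes 28 were higher, 4 lower and 5 not called (median 1.54), at low levels. With a filter of 5 CPM 21 remained, 14 higher and 4 lower (median 0.75). Ccna2, cyclin A2, rose from 12 counts to 1002 over the 3 mice, a ratio of 75.5 (95% interval 43.0 to 147), ending at 5.61, 2.95 and 8.21 CPM. Top2a, which untangles DNA, rose from 1.65, 1.25 and 2.32 to 32.8, 19.9 and 43.4 CPM (4.18, SE 0.11) and Mki67, the proliferation marker, from 2.09, 1.90 and 1.66 to 19.4, 13.4 and 29.3 CPM (3.39). Of genes that act at mitosis itself, Ccnb1, Cdc20, Aurka, Aurkb and Bub1 were among those higher. Ccnb2 and Plk1 did not pass the test (0.04 and -0.22, edgeR adjusted p = 0.819 and 0.217). Without mouse 2 the edgeR adjusted p of Plk1 was 0.0419. Centromere and kinetochore genes moved in both directions. Cenpa and Ndc80 fell (-1.04 and -0.68), while Cenpe, Cenpf, Nuf2, Bub1b, Ttk and Mad2l1 were higher. Among 19 G1 regulators 9 were higher (47.4%, against 31.0% of all genes tested) and 7 lower (36.8%, against 31.4%), and their median change was near 0. The CDK inhibitors moved oppositely: Cdkn1a (p21) rose from 2.77, 2.61 and 1.95 to 272, 295 and 243 CPM (log2 fold change 6.79, SE 0.08, adjusted p = 2.11e-12) and Cdkn1b (p27) fell from 520.1, 484 and 458 to 162, 185 and 117 CPM (-1.68). Ccnd2 and Cdk6 rose (1.46 and 1.93), and Ccnd3 fell (-0.75).

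Survival and stress genes accompanied this. The BCL2 family had 10 of 15 higher (66.7%, against 31.0% of all genes tested) and 4 lower (26.7%, against 31.4%), with a median of 0.63. Bcl2l1 (BCL-XL) rose from 7.37, 5.97 and 6.43 to 77.8, 57.9 and 92.9 CPM (log2 fold change 3.51, SE 0.15, edgeR adjusted p = 3.56e-08). The near-identical Bcl2a1b and Bcl2a1d, between which reads can be split wrongly, both rose (3.34 and 4.64). Bcl2l11, which encodes the killer protein BIM, rose as well (225, 189.5 and 191 to 300.4, 281 and 267 CPM, 0.49). Of 17 p53 and growth-arrest genes 11 were higher (64.7%) and 4 lower (23.5%), with a median of 1.34. Sesn2 and Sesn1 moved in opposite directions (3.12 and -1.47). Phlda3, Ccng1, Zmat3, Trp53inp1, Tnfrsf10b and Plk2 were higher, and Gadd45a, Sesn3 and Btg2 were lower. Mdm2 (0.02, edgeR adjusted p = 0.821) and Eda2r were not called.

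Interferon-stimulated genes divided by kind. Of 37 tested 21 were higher, 7 lower and 9 not called (median 0.55). All 11 immunity-related GTPases and guanylate-binding proteins, which interferon gamma induces to attack vacuoles of microbes, were higher (median 2.45). Iigp1 rose from 11.7, 8.14 and 11.2 to 166, 96.02 and 109 CPM (3.55, SE 0.20, edgeR adjusted p = 6.61e-06) and Gbp2 from 60.7, 60.4 and 56.1 to 463, 347 and 380.5 CPM (2.74). The other 26 had 10 higher (38.5%, against 31.0% of all genes tested), 7 lower (26.9%, against 31.4%) and a median of 0.08. Among them the antiviral gene Ifit2 fell from 81.5, 72.8 and 81.1 to 29.1, 30.4 and 24.7 CPM (-1.48). The split into these kinds was made after the values were seen, so it is a description.

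Subunits of the BAF complex, a chromatin remodeller assembled from alternative parts, moved in both directions. Of 28 genes 9 were higher (32.1%, against 31.0% of all genes tested), 14 lower (against 31.4%) and 5 not called (median -0.14). The alternative ATPases moved apart, Smarca4 (BRG1) up from 231, 233 and 231 to 315, 310.4 and 348 CPM (log2 fold change 0.48, SE 0.06, edgeR adjusted p = 4.21e-05) and Smarca2 (BRM) down from 237, 242 and 236 to 99.5, 114 and 87.7 CPM (-1.25, SE 0.07, adjusted p = 9.61e-08). So did the paired scaffolds Smarcc1 (88.9, 90.6 and 95.9 to 159, 138 and 184 CPM, 0.80) and Smarcc2 (288, 282 and 289.5 to 207, 219 and 193 CPM, -0.47). In every mouse the ratio of each pair thus shifted to the first. The core subunits Smarcb1 and Actl6a rose (0.77 and 0.59), while the DNA-binding subunit Arid1a fell (640.2, 658 and 687 to 477, 493 and 463 CPM, -0.47). The 3 subunits that define the non-canonical form, Brd9, Bicra and Bicral, all fell (-0.90, -1.11 and -1.05). Subunits of the PBAF form moved in both directions. Phf10 rose from 53.5, 54.5 and 57.4 to 174, 148 and 138 CPM (1.47, SE 0.08) and Brd7 was higher, while Pbrm1 and Arid2 were lower. Bcl11b, a T cell factor found with BAF, fell from 258, 266 and 266 to 131, 135 and 121 CPM (-1.03). Smarcd1 and Dpf2 were not called (adjusted p = 0.229 and 0.0954).

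Of 23 other chromatin genes 13 were higher (56.5%, against 31.0% of all genes tested) and 6 lower (26.1%, against 31.4%), with a median of 0.39. Kdm6b, which removes the Polycomb mark, rose from 141, 133 and 183 to 553, 576 and 651 CPM (log2 fold change 1.97, SE 0.07, edgeR adjusted p = 4.9e-09). Of the enzymes that write that mark, Ezh2 rose from 17.2, 15.97 and 21.4 to 50.98, 38.1 and 65.3 CPM and Ezh1 fell from 258, 266 and 245 to 154, 167 and 126 CPM. Dnmt3a, which sets new DNA methylation, rose (0.92), and the demethylases Tet1 and Tet3 fell (-1.89 and -1.22), while Dnmt1 and Tet2 were not called (-0.05 and -0.03).

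The size of the response differed between the mice. Over the 5888 genes that rose, the median log2 change was 0.86 in mouse 1, 0.78 in mouse 2 and 0.99 in female mouse 3, and over the 5952 that fell it was -0.71, -0.62 and -0.79. Mouse 3 had the largest change in 58.2% of the 11840 called genes and mouse 2 the smallest in 56.9%. Activated libraries lay at 74.8, 62.4 and 90.2 on the first principal component in mice 1, 2 and 3, and the rested ones between -76.1 and -75.2. Zbtb32, a repressor gene of activated lymphocytes chosen after its values were seen, spread widely (5.02, 4.68 and 7.90 on the log2 scale), while Cdkn1a spread little (6.60, 6.80 and 6.94). With 1 female among the 3, sex and animal cannot be told apart, and no test was made.

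The same activation in the 2 control mice served to ask whether the response depends on the genotype, and 10352 genes (54.6%) were called for it. Across 18966 genes the log2 fold changes of the genotypes had a Pearson r of 0.891, a description over genes that are not independent, and 11716 of the 11840 genes called in cKO cells (99%) had the same sign in the control cells. The test of the difference between the responses called no gene (edgeR's quasi-likelihood test, 442 genes or 2.33% at an unadjusted p below 0.05). DESeq2's Wald test called 3, Gm4613, Dusp2 and Irf4 (adjusted p = 0.000489, 0.00337 and 0.046), edgeR without the low-count filter called 38, those 3 among them (2.35e-07, 2.72e-06 and 2e-05), and limma called none. For these 3 genes and Nr4a1, singled out after their values were seen, the call thus depends on the setting. Dusp2 rose by 0.99 in cKO and 1.67 in control cells on the log2 scale, a difference of -0.68 (SE 0.10, edgeR adjusted p = 0.452). Irf4 rose by 7.07 in cKO and 7.69 in control cells (5.62 and 6.05 CPM at rest and 1091 and 1337 CPM after activation in the 2 control mice), a difference of -0.63 (SE 0.12, adjusted p = 1). Nr4a1 rose by 7.78 and 8.42, with 2.23 and 3.40 CPM at rest and 899.9 and 1009 CPM after activation in the control mice (difference -0.63, SE 0.14, adjusted p = 1, and 0.00066 without the low-count filter). The pseudogene Gm4613 rose by 1.16 in cKO and changed by -0.45 in control cells, the smallest p of the difference (adjusted p = 0.217). A p that misses the threshold with 3 against 2 mice does not show that the responses were alike. All cKO and no control mice carried cre, so cre and the loss of Dusp2 cannot be told apart.

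**Figure D4:**
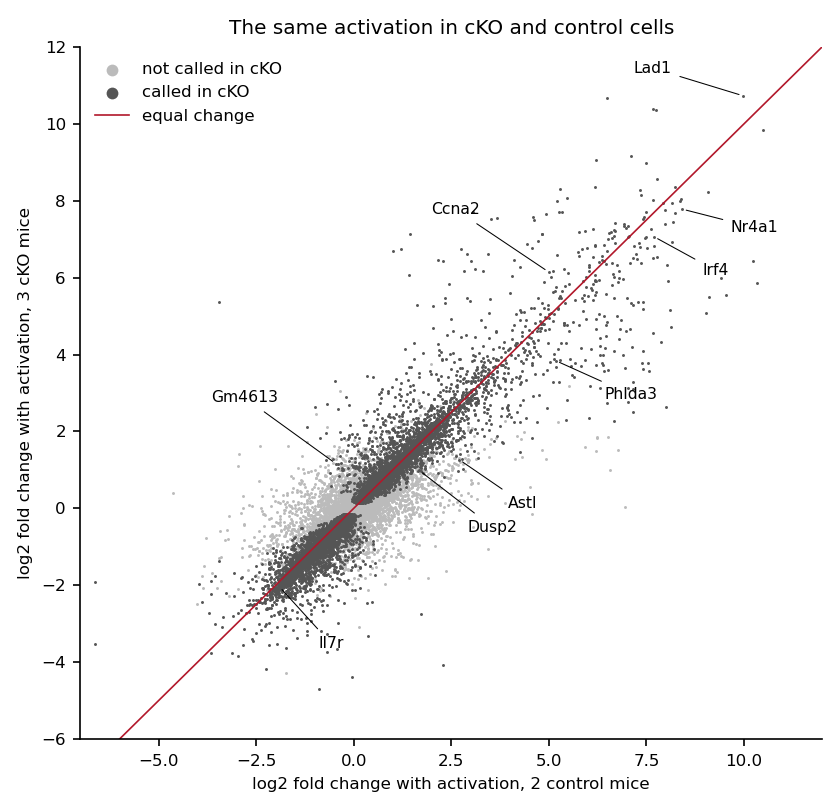
Each point is a gene with its log2 fold change on activation in the 2 control mice (x axis) and the 3 cKO mice (y axis); dark points were called in cKO cells and the line marks equal change. The points follow the line (Pearson r 0.891 over genes), with Dusp2 and Astl below it and the pseudogene Gm4613 above it. Astl was near the count floor in the rested control libraries, so its place on the x axis is imprecise. The main test of the difference between the responses called no gene.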

How the data were processed

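RNA of splenic CD8+ T cells was sequenced from total RNA with a stranded mRNA kit, per the labels' protocols. The submitters' processing notes name mm39, Subread, FastQC and MultiQC, and give no version. Settings, annotation and use of strand: not given in the sources used here. Antisense, overlapping and near-identical genes are therefore uncertain. The authors deposited raw counts for each gene, and the deposited FPKM equal those counts scaled by gene length plus 1 and the column sum (relative deviation at most 9.4e-07). The members and lists were chosen with earlier results of these data known.

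Counts were fitted in R 4.3.3 with edgeR 4.0.16 (TMM, filterByExpr, robust quasi-likelihood) over all 10 libraries, with mouse as a block and 1 activation effect per genotype. The groups share the spread (coefficient of variation 8.46%, 3 residual degrees of freedom, median prior 7.85). Of 57010 genes, 24326 had no count and 18966 were tested. Genes with an adjusted p below 0.05 are called. Each mouse is a separate animal, and its 2 libraries pair by design. Their deviations correlated at 0.26, 0.15 and 0.33 in cKO mice 1 to 3 and at 0.36 in the control mice. Genes were named by rule, Dusp2 as the target. The 15 highest and 15 lowest log2 fold changes were taken among called genes with at least 5 CPM in a group and no overlap, leaving out predicted genes and receptor segments. The 8 largest rises and falls in FPKM were taken among called genes, leaving out mitochondrially encoded genes. List members were taken by role and p. In simulated data for the activation comparison (18454 genes), 59, 67 and 69 genes were changed by 0.585, 1 and 2 on the log2 scale. The test recovered 45.8%, 77.6% and 91.3% of them, with 17 false calls. Far fewer genes changed there than were called in the data. The simulation therefore does not show how scaling and false calls behave when most genes move. Alternatives used DESeq2 1.42.0 and limma 3.58.1. Promoters (RefSeq, GRCm38.p6) were matched by symbol for 10837 of 18966 genes (57.1%). Intervals are exact at 95% and cover counting error only. Python 3.11.15 made tables and figures.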

Additional observations from a re-analysis of the deposited data

Results flagged for a closer look

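The 353 genes followed singly were screened for changes of opposite sign between the genotypes or between the sexes. By this screen the pseudogene Gm4613 moved in opposite directions in the genotypes. Its mean log2 change on activation was 1.15 in the 3 cKO mice and -0.45 in the 2 control mice, with the same sign in every mouse of a genotype, and the test of the difference gave an edgeR adjusted p of 0.217. Reads of a pseudogene can come from its parent gene.

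In the same screen the males and the females moved in opposite directions over both genotypes for 2 genes. They were picked by their signs from all the genes screened, so this is a description only. The antiviral gene Mx1 changed by a mean of -0.31 on the log2 scale in the 3 males and 0.09 in the 2 females, and Stard7, a lipid-transfer gene close to Dusp2, by -0.10 and 0.04. The difference between the sexes was not tested, and neither gene passed the test for activation.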

How the results depend on the processing

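Activation called 11840 genes with the replicate block and 12016 with no replicate block but sex as a term (5975 higher, 6041 lower), where the 2 libraries of a mouse are paired by design. Counts stayed within 1.5 times of these under every alternative but 1. Requiring an absolute log2 fold change above 1 left 2538 genes, 1635 higher and 903 lower. Leaving out a mouse gave 10128 to 11678 genes, 5096 to 6035 higher and 5032 to 5714 lower. No gene was called in opposite directions by the main and any other setting. The split between higher and lower stayed within 5 percentage points, apart from the fold threshold, where 64.4% were higher. Scaling by library totals alone, added after seeing the data, moved the median of all genes to 0.06 and gave 6388 higher and 5393 lower.

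The difference between the responses of cKO and control cells called 0 genes, 38 without the low-count filter, 3 with DESeq2, and 0 to 3 when a mouse was left out, where a lone control mouse is taken to have the spread of the rest. The 3 genes without cKO mouse 3 (Mir682, Gm55040, Rpl37a) and the 3 without control mouse 1 (ENSMUSG00000121510, Gm8810, Gstp2) are named after seeing their values and share none with those of DESeq2. Fitting FPKM with a pseudocount of 0.1, and the 6 cKO libraries alone, were run for activation only. Of 353 genes followed singly, which include all genes named for activation, 329 were called, none reversed, 116 lost the call under the fold threshold and 21 under another alternative. Those 21 were B2m, Bmf, Btg1, Ccl6, Cd44, Cd8a, Cdt1, Dusp1, Foxp1, Gzma, Igkc, Ikzf2, Il17a, Kif23, Lamp1, Mcl1, Ndufs7, Pdcd1, Pola2, Srebf2 and Tbx21. Dpf2 and Eef1a1 each gained a call under 4 alternatives, Qars with library totals alone and Plk1 without cKO mouse 2. Medians of lists with many low-count members moved. With a filter of 5 CPM the mitosis median was 0.75 against 1.54, and the cytokine median 2.02 against 4.68. With 3 counts at about 0.05 CPM, genes near that floor limit the precision.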

Other observations

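Noncoding and short transcripts moved apart by kind. Of 266 small nucleolar RNA genes tested, guides of ribosomal RNA modification that lie in introns of host genes, 182 were higher and 2 lower in activated cKO cells, with a median log2 fold change of 1.10. Counting here cannot separate these genes from their hosts. Of 2426 long noncoding RNA genes 371 were higher and 791 lower (median -0.32), against 4583 higher and 4591 lower of 12753 protein-coding genes (median 0.00).

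A set of 18 genes had at most 3 counts in each rested and at least 1 CPM in each activated cKO library, and 0 genes showed the reverse pattern. They were picked by these values, so no test was made. Among them were the early response gene Egr4 (1.22 ± 0.25 CPM after activation, SD, n = 3 mice), the homeobox gene Hoxb9 (2.97 ± 1.01 CPM), the metallothionein gene Mt2 (4.28 ± 2.00 CPM), the ephrin receptor gene Epha2 (1.79 ± 0.83 CPM), Anxa3, which encodes annexin A3 (3.50 ± 0.28 CPM), and the tubulin gene Tubb6 (2.29 ± 1.55 CPM).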
